A study of Homo sapiens with 9 samples.

Results

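The comparison was between CAL-1 cells in which KHSRP had been knocked down by CRISPR interference, in the group labelled KHSRPi#1, and control cells labelled NTC, with 3 RNA sequencing libraries in each group. CAL-1 is an established human line of BPDCN (blastic plasmacytoid dendritic cell neoplasm), a rare leukemia that arises from precursors of plasmacytoid dendritic cells. The labels give the controls the genotype WT and the knockdown cells the genotype KHSRP knockdown, and name the same line and 1 shared batch for all libraries. They do not say what the number after KHSRPi stands for, and it is taken here to be the guide RNA, so KHSRPi#1 is called guide 1. A second knockdown group, KHSRPi#2 (guide 2, 3 libraries), was left out of the choice of genes and is set beside guide 1 where values are compared. The sources used here do not give the repressor, the guide sequences, the time after their introduction, or whether cells were clones or pools. Genes with a mean of at least 1 TPM (a unit in which read numbers are divided by transcript length and scaled to the same total in every library) over the 6 libraries were included, which were 10913 of 25540 gene symbols.

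KHSRP (KH-type splicing regulatory protein) binds AU-rich elements, stretches of A and U in the 3′ untranslated regions of many short-lived mRNAs, and recruits enzymes that remove the poly(A) tail and degrade the mRNA. It also takes part in splicing and in the maturation of some microRNAs, let-7 among them. FUBP1 and FUBP3 belong to the same family of KH-domain proteins and are known for binding the far upstream element of MYC. Plasmacytoid dendritic cells sense viral nucleic acids through endosomal Toll-like receptors, secrete type I interferon, and carry surface lectins, MHC class II molecules and stores of granzyme B. The series title names SLC23A1, a sodium-dependent vitamin C transporter, so this gene is reported whatever its values.

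Each library summed to 1000000 TPM, and between 13993 and 14462 symbols were above 0 in the 6 libraries. TPM keeps no read totals, so the depth in reads is unknown. Of 29 listed plasmacytoid dendritic cell genes, 24 averaged at least 1 TPM over the 6 libraries. The regulators IRF8 and TCF4 had control means of 2479 and 201 TPM. LILRA4, PTCRA, SERPINF1 and PACSIN1 of the same list had control means of 0.617, 0.524, 0.3675 and 0.0092 TPM. IL3RA, which encodes the CD123 marker of this lineage, was listed at 0 in all libraries. The sources used here do not say how reads that match several places were counted. A listed 0 therefore need not mean that IL3RA mRNA was absent. Summed markers of T cells reached at most 0.133 TPM in a control library and 0.0821 TPM in a guide 1 library, and erythroid markers were listed at 0 in all 6. B cell markers summed to between 3.63 and 5.32 TPM in the controls and between 3.69 and 4.90 TPM with guide 1, mostly PAX5. Monocyte markers summed to between 37.5 and 92 TPM in the controls and between 43.1 and 82.5 TPM with guide 1, nearly all of it LYZ, which encodes lysozyme, while CD14 was below 0.1 TPM and S100A8, S100A9 and FCN1 were listed at 0. NK cell markers summed to between 82.8 and 95.8 TPM in the controls and between 82.9 and 96.6 TPM with guide 1. Most of that sum was NCAM1, the CD56 antigen that BPDCN cells also carry, and NCR1 and PRF1 were listed at 0 in all 6 libraries. The replicate 3 libraries of both groups stood apart from the other 4. Along the first principal component (44.3% of the variance) they lay at 14.4 and 13.1 and the others between -9.30 and -3.87.

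KHSRP mRNA was 253, 244 and 216 TPM in the control libraries and 35.1 TPM in each of the 3 guide 1 libraries. The guide 1 libraries all lay far below the controls and were nearly equal to one another. Means were 237 ± 19.1 TPM in control libraries and 35.1 ± 0.0134 TPM with guide 1 (SD, n = 3 each), so that 14.8% of the control level remained. The log2 fold change was -2.72 (SE 0.06, limma adjusted p = 7.2e-09). Fold changes throughout are differences in mean log2(TPM + 1), which understate the change of genes at a low TPM. KHSRP was called, meaning an adjusted p under 0.05, under all 23 alternative analyses, with fold changes from -2.79 to -2.59.

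KHSRP spans positions 6413348 to 6424794 of chromosome 19 (hg38, GENCODE 29) on the minus strand. Its promoter is shown because CRISPR interference acts by blocking transcription around the start site. The window is chr19:6424762-6425061 on the minus strand (RefSeq, GRCh38.p14), with the 250 bases before the annotated start in lower case and the first 50 transcribed bases in capitals.
KHSRP promoter: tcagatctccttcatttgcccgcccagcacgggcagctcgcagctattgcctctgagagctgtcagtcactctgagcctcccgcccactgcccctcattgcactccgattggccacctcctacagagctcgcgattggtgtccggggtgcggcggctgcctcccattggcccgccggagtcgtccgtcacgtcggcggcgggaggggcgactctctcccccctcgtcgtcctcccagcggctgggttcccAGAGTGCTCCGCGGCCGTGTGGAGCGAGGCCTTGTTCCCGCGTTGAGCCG
Of these 300 bases 68% were G or C, with 29 CpG dinucleotides. Over 8321 promoters of tested genes matched in the same RefSeq table, the medians were 65% and 26, and 61% of promoters had a lower G and C share. The sources used here do not say which bases the guides match. The 5 tested genes within 100 kb of KHSRP, which were ALKBH7, CLPP, DENND1C, GTF2F1 and SLC25A23, were not called with or without the replicate block introduced below, and all overlapped the controls. SLC25A23, with 33 ± 3.01 TPM in control libraries and 28.5 ± 5.07 TPM with guide 1, had a log2 fold change of -0.21 (adjusted p = 0.998, and 0.191 with the block).

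Besides KHSRP, 5 genes were called for guide 1: FUBP1, LINC00565, SWI5 and TCL1B rose and CSTF3 fell. These 6 genes are 0.055% of the genes tested, with 4 higher (0.0367%) and 2 lower (0.0183%), and 570 genes (5.22%) had an unadjusted p under 0.05. Nothing in the labels says that replicates came from separate cultures, and the p-values therefore reflect the spread among these libraries alone, which may be technical.

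**Figure D1:**
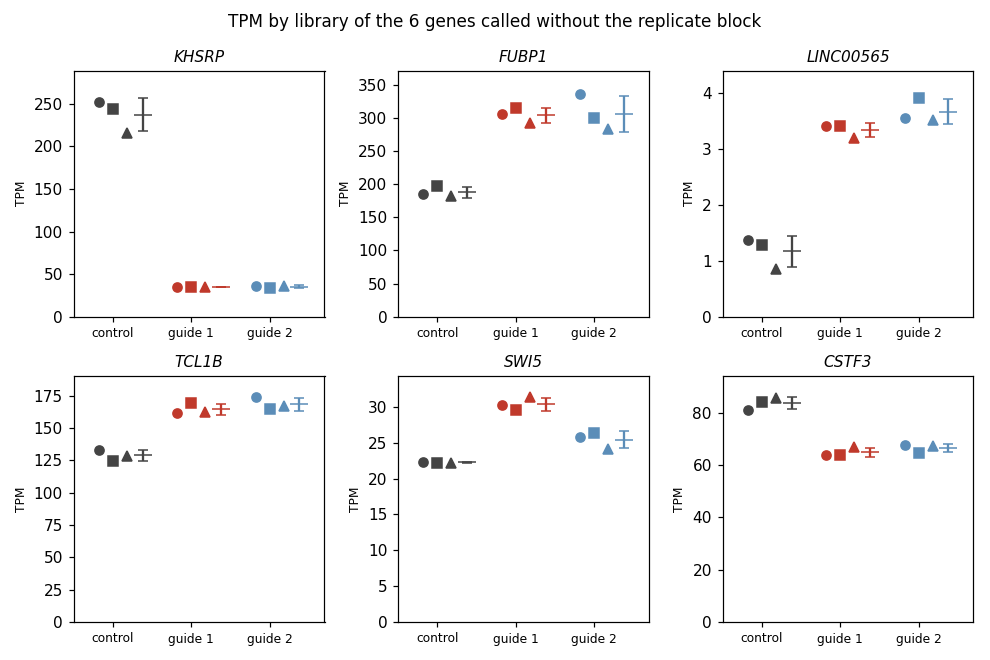
TPM (vertical axes, starting at 0) in each library of the 6 genes called for guide 1 without the replicate block, in the control, guide 1 and guide 2 groups. Circles, squares and triangles are replicates 1, 2 and 3, and the bars beside them are the mean ± SD (n = 3). The guide 1 libraries of each gene lie on one side of the controls, and for SWI5 the guide 2 libraries (24.1 to 26.3 TPM) lie between the control (22.2 to 22.3 TPM) and guide 1 libraries (29.6 to 31.3 TPM).

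FUBP1, on chromosome 1 at positions 77944055 to 77979110 (minus strand), was at 185, 197 and 182 TPM in the controls and 306, 315 and 293 TPM with guide 1. Every guide 1 library was far above every control. The log2 fold change was 0.69 (SE 0.07, adjusted p = 0.00372), or 162% of the control mean in TPM. FUBP3, the other family member tested, averaged 60.7 ± 0.728 TPM in control libraries and 60.3 ± 2.25 TPM with guide 1, giving a log2 fold change of -0.01 (95% interval with the replicate block -0.13 to 0.12).

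LINC00565, a long noncoding RNA from chromosome 13 (113926514 to 113928844, minus strand), was at 1.37, 1.28 and 0.854 TPM in the controls and 3.42, 3.42 and 3.19 TPM with guide 1. The groups did not overlap, although all values were low. Its log2 fold change was 1.01 (SE 0.11, adjusted p = 0.011). TCL1B, a relative of the TCL1A oncogene on chromosome 14 (95686417 to 95692643), was at 133, 125 and 129 TPM in the controls and 162, 169 and 162 TPM with guide 1. Its libraries were close together within each group and clearly apart between groups (log2 fold change 0.35, SE 0.05, adjusted p = 0.0335).

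SWI5 encodes a protein of recombinational DNA repair and lies on chromosome 9 (128275379 to 128288990). It was at 22.3, 22.2 and 22.2 TPM in the controls and 30.2, 29.6 and 31.3 TPM with guide 1. The control libraries were nearly identical and all guide 1 libraries were higher (log2 fold change 0.43, SE 0.06, adjusted p = 0.0335). CSTF3 encodes a subunit of the cleavage stimulation factor, which acts in forming mRNA 3′ ends, and lies on chromosome 11 (33077188 to 33162371, minus strand). It was at 81.1, 84.3 and 85.6 TPM in the controls and 63.9, 63.8 and 66.9 TPM with guide 1. The guide 1 libraries were all lower (log2 fold change -0.36, SE 0.05, adjusted p = 0.0335). KHSRP and FUBP1 were called in all 9 fits that left out 1 library and LINC00565 in 6 of them, while SWI5, TCL1B and CSTF3 were called in none, with adjusted p up to 0.246, 0.246 and 0.303.

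The replicate 3 libraries deviated from their group means together (correlation 0.63 between control and guide 1). For replicates 1 and 2 the same-number correlations, 0.16 and 0.23, were below those across numbers, 0.34 and 0.29. These values therefore show no pairing of replicates 1 and 2. The comparison was also fitted with the replicate number as a block, so that replicate 1 was compared with replicate 1 and so on. In this fit 55 genes were called for guide 1, or 0.504% of those tested, of which 35 were higher (0.321%) and 20 lower (0.183%). The 6 genes above were among them, and the other 49 had adjusted p between 0.0557 and 0.998 without the block. For 37 of the 55 genes all guide 1 libraries lay beyond all controls, 27 above and 10 below. Over all tested genes, 5.44% lay above and 4.31% below. The other 18 genes overlapped the controls. All 55 moved one way in every same-numbered pair, which the fit with the block favours. So did 39.5% of all tested genes, and such a move alone sets no gene apart. Apart from KHSRP the changes were modest, with a median size of 0.41 on the log2 scale for the higher genes and 0.40 for the lower genes.

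The number of calls depended on single libraries. Of the 55 genes, 27, 17 and 7 were called without NTC replicate 1, 2 or 3, and 5, 12 and 7 without guide 1 replicate 1, 2 or 3. Those called in all 9 fits that left out 1 library were KHSRP, FUBP1, GZMB and LINC00565, while PSPC1 and ZFP36L1 were called in 8 and the others in fewer. In the fits without the block, leaving out 1 library moved the fold change of 15 of the 55 genes by more than 1.5 times, among them PCYOX1L, GJB2, DLX2 and CALHM2 and others given with their values below. In the fits with the block, a range added after seeing the data, it moved none of the 55 by that much, and none of the 55 changed sign in either. The 55 were chosen by the fit with the block, which favours steady differences. Their stability was therefore largely set by the choice and lends them no support. A term for the replicate 3 libraries in place of the block called 79 genes (0.724%), of which 51 were among the 55.

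**Figure D2:**
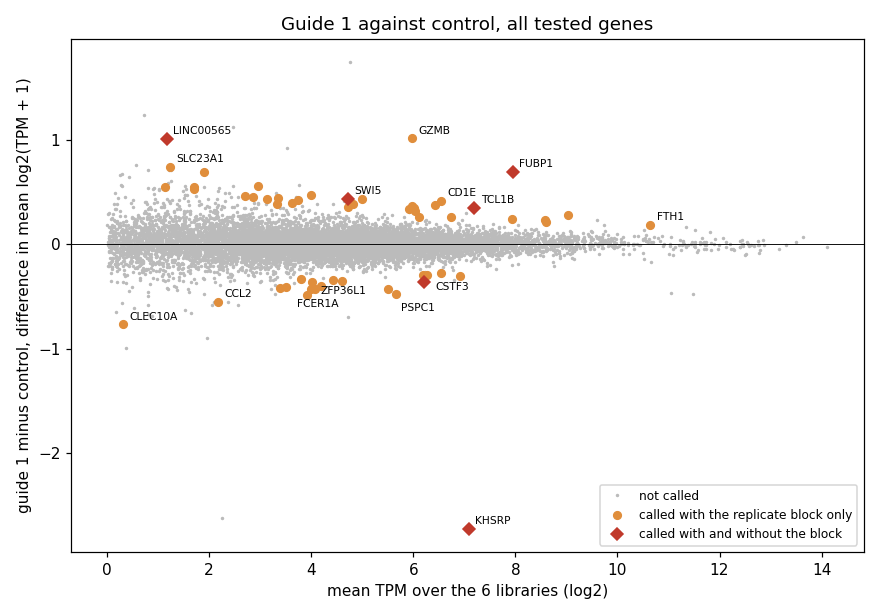
Difference in mean log2(TPM + 1) between guide 1 and control (vertical axis) against the mean TPM over the 6 libraries (horizontal axis, log2) for the 10913 tested genes. Red diamonds are the 6 genes called with and without the replicate block, orange circles the other 49 called with the block, and grey dots the remaining genes. KHSRP stands alone at -2.72 among abundant genes and the called genes spread to both sides of 0.

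Among proteins that act on AU-rich mRNAs, ZFP36 and ZFP36L1 fell with the replicate block. Both encode zinc finger proteins known for binding AU-rich elements and recruiting deadenylases. ZFP36L1 was at 45, 48.8 and 62.8 TPM in control replicates 1, 2 and 3 and at 32.3, 35.5 and 48 TPM with guide 1. Each guide 1 library was below the control of its number, at 0.719, 0.729 and 0.764 of it, but the groups overlapped because both replicate 3 libraries were high. The log2 fold change was -0.43 (SE 0.05, adjusted p = 0.00519 with the block and 0.922 without it). ZFP36 was at 82.2, 85.8 and 75 TPM in the controls and 62.8, 70.5 and 63.8 TPM with guide 1, all below the controls. Its log2 fold change was -0.30 (SE 0.05, adjusted p = 0.0211 with the block). Of the 24 tested AU-rich element binding and KH-domain proteins, FUBP1 was higher and KHSRP, ZFP36 and ZFP36L1 lower with the block. Over all tested genes 0.504% were called with it. The median over the list was -0.02. The most abundant member, the mRNA-binding protein YBX1, averaged 909 ± 9.88 TPM in control libraries and 898 ± 5.53 TPM with guide 1. None of 29 exosome, deadenylation and decapping enzymes was called, and 0 had an unadjusted p under 0.05 without the block. These and the other gene lists were chosen with earlier results of these data known, so counts of called members are no separate support.

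Nuclear RNA processing genes included 1 more that fell with the block, PSPC1, which encodes a paraspeckle protein (chromosome 13, 19674752 to 19783019, minus strand). PSPC1 was at 53.9, 62.4 and 61.5 TPM in the controls and 39.4, 44.2 and 43.4 TPM with guide 1. The guide 1 libraries were all lower, at 0.732, 0.709 and 0.706 of the control of their number. Its log2 fold change was -0.47 (SE 0.05, adjusted p = 0.0019 with the block and 0.0557 without it). It was the 1 called member of 11 tested paraspeckle components, beside 0.504% of all tested genes called with the block. MALAT1 and HNRNPH3 had log2 fold changes of 0.23 and 0.15 that did not pass, and the abundant HNRNPK was at -0.01. Among 20 genes of the mRNA 3′ end machinery CSTF3 was called. Of the other members of that list, CSTF1, CPSF1 and CPSF2 had log2 fold changes of -0.10, -0.12 and 0.14, and NUDT21, the most abundant, was at 0.01. None of 30 HNRNP and SRSF splicing regulators, 18 microRNA processing genes or 16 known let-7 targets was called. Without the block, 2, 1 and 2 of them had an unadjusted p under 0.05, all lower. Over all tested genes 5.22% had such a p, and 2.11% were lower with it.

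**Figure D3:**
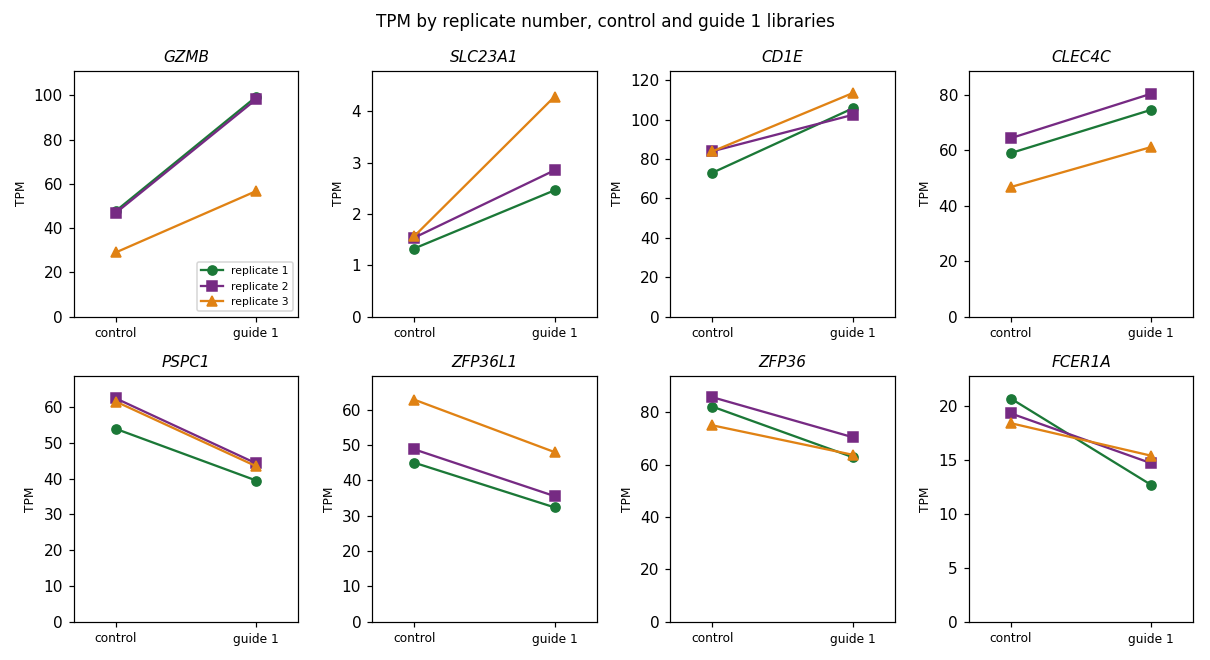
TPM (vertical axes, starting at 0) of 8 genes called with the replicate block, in control and guide 1 libraries, with lines joining libraries of the same replicate number. All lines rise for GZMB, SLC23A1, CD1E and CLEC4C and fall for PSPC1, ZFP36L1, ZFP36 and FCER1A, and for GZMB and ZFP36L1 the replicate 3 line (orange) is set apart from the others.

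GZMB, which encodes granzyme B, the serine protease stored by plasmacytoid dendritic cells and cytotoxic lymphocytes, rose with the block. GZMB was at 47.7, 46.8 and 29 TPM in the controls and 99.4, 98.2 and 56.7 TPM with guide 1. Both replicate 3 libraries were low, yet every guide 1 library exceeded every control, at 2.08, 2.10 and 1.96 times the control of its number. The log2 fold change was 1.01, with an SE of 0.28 and adjusted p = 0.677 without the block and an SE of 0.05 and adjusted p = 1.22e-06 with it. GZMB lies on chromosome 14 (24630954 to 24634267, minus strand). CLEC4C, the lectin BDCA-2 that marks this cell type, was at 59, 64.4 and 46.7 TPM in the controls and 74.6, 80.4 and 61.2 TPM with guide 1. The groups overlapped at replicate 3, and the log2 fold change was 0.34 (adjusted p = 0.0337 with the block), or 0.21 and 0.46 without the block when NTC replicate 3 or guide 1 replicate 3 was left out. GNLY, which encodes granulysin, a cytotoxic protein of lymphocytes, was at 6.05, 4.15 and 5.66 TPM in the controls and 3.28, 2.65 and 3.93 TPM with guide 1. Its guide 1 libraries were all lower, and it did not pass (log2 fold change -0.55, adjusted p = 0.0727 with the block). In cultures measured in bulk, a change in the number of cells that express a gene and a change in RNA per cell cannot be told apart.

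FCER1A, the IgE-binding chain of the high-affinity Fc epsilon receptor, moved the other way, from 20.6, 19.3 and 18.4 TPM in the controls to 12.6, 14.7 and 15.4 TPM with guide 1. All guide 1 libraries were lower (log2 fold change -0.43, SE 0.08, adjusted p = 0.0411 with the block and 0.303 without it). FCER1G, the gamma chain that signals for this receptor, averaged 489 ± 16.3 TPM in control libraries and 445 ± 12.4 TPM with guide 1. Its log2 fold change was -0.13 (adjusted p = 0.898 without the block). Over 23 alternative analyses, the block among them, the lowest adjusted p of FCER1G was 0.126. Of 24 tested plasmacytoid dendritic cell genes, GZMB and CLEC4C were higher and FCER1A lower with the block, beside 0.504% called of all tested genes. Of the 24, 16 had positive fold changes against 52.6% of all tested genes. JCHAIN, the most abundant of them, averaged 2787 ± 184 TPM in control libraries and 3066 ± 87.5 TPM with guide 1 and was not called.

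CLEC10A, GPR183 and CD300A, which encode receptors of leukocytes, were also called with the block. CLEC10A, a galactose-type lectin of conventional dendritic cells and macrophages, fell from 2.29, 1.91 and 1.3 TPM to 0.575, 0.814 and 0.566 TPM. All its values were low and the groups did not overlap (log2 fold change -0.77, SE 0.13, adjusted p = 0.0276). GPR183, an oxysterol receptor that guides the migration of immune cells, was at 63.9, 67.9 and 33.7 TPM in the controls and 78.7, 80.6 and 49.8 TPM with guide 1 (log2 fold change 0.36, adjusted p = 0.0315). CD300A, an inhibitory receptor, was at 24, 19.9 and 38 TPM in the controls and 18.4, 15.8 and 29.4 TPM with guide 1 (log2 fold change -0.35, adjusted p = 0.018). Both GPR183 and CD300A overlapped between the groups, with replicate 3 libraries apart from the others, and their adjusted p without the block was 0.998. Without the block, the fold change of GPR183 was 0.05 when NTC replicate 3 was left out and 0.59 without guide 1 replicate 3, and that of CD300A was -0.09 and -0.60.

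In the CD1 and TCL1 families 3 of 7 tested genes rose with the block. CD1 proteins present lipids to T cells, and TCL1 proteins are coactivators of the kinase AKT. CD1E (chromosome 1, 158353696 to 158357553) was at 73, 83.9 and 83.9 TPM in the controls and 106, 102 and 114 TPM with guide 1. Its groups did not overlap, and the log2 fold change was 0.41 (SE 0.05, adjusted p = 0.00519 with the block and 0.101 without it). CD1B, on the same chromosome (158327951 to 158331531, minus strand), was at 6.01, 6.72 and 5.65 TPM in the controls and 9.76, 8.92 and 9.74 TPM with guide 1. It was likewise higher in all guide 1 libraries (log2 fold change 0.56, SE 0.08, adjusted p = 0.0149 with the block and 0.0557 without it). The third called gene was TCL1B, all 7 had positive fold changes, and their median was 0.19 against 0.01 over all tested genes. Over all tested genes 0.504% were called with the block. The list joins separate families and was chosen with earlier results of these data known, so these counts are no separate support. TCL1A, the most abundant, averaged 802 ± 32.3 TPM in control libraries and 909 ± 29.7 TPM with guide 1 and was not called (log2 fold change 0.18, adjusted p = 0.573, and 0.0694 with the block).

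MHC class II genes had small positive fold changes, and 1 of 14 was called with the block, beside 0.504% of all tested genes. HLA-DQA1, an alpha chain of the DQ molecule, was at 62.7, 62.4 and 63.4 TPM in the controls and 70.8, 75.1 and 80.7 TPM with guide 1. Every guide 1 library exceeded the nearly equal controls, and the log2 fold change was 0.26 (SE 0.05, adjusted p = 0.0339 with the block and 0.444 without it). Fold changes were positive for 13 of the 14 genes, with a median of 0.11. HLA-DRA, HLA-DPA1 and HLA-DPB1 had values of 0.19, 0.16 and 0.20 that did not pass, and the abundant invariant chain CD74 was at 0.02. HLA genes resemble one another in sequence, and the sources used here do not say how the authors' counting treated reads shared between them. None of 15 MHC class I presentation genes was called or had an unadjusted p under 0.05 without the block.

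SLC23A1 rose with the block. SLC23A1 (chromosome 5, 139367196 to 139384553, minus strand) was at 1.33, 1.54 and 1.56 TPM in the controls and 2.46, 2.85 and 4.29 TPM with guide 1. All guide 1 libraries were higher, replicate 3 most so, at 1.86, 1.86 and 2.74 times the control of their number. Means were 1.47 ± 0.13 and 3.20 ± 0.961 TPM (SD, n = 3 each). The log2 fold change was 0.74, with an SE of 0.17 and adjusted p = 0.408 without the block and an SE of 0.11 and adjusted p = 0.018 with it. With the block, SLC23A1 was called in 4 of the 9 fits that left out 1 library, with adjusted p up to 0.138. All its values were low, and its fold change ran from 0.33 to 1.03 over 22 alternatives. SLC23A2, the related vitamin C transporter, was expressed at a higher TPM, 32.1 ± 1.63 in control libraries and 33.3 ± 1.62 with guide 1, and its log2 fold change of 0.05 had a 95% interval from -0.08 to 0.18 with the block. Of 10 tested genes of vitamin C transport and recycling SLC23A1 was the 1 called, beside 0.504% of all tested genes with the block. SLC2A8, SLC2A3, TXNRD1 and PDIA3 had log2 fold changes of -0.24, -0.17, 0.10 and 0.07 that did not pass. TET2, a DNA dioxygenase that uses vitamin C as a cofactor, averaged 5.62 ± 0.808 TPM in control libraries and 5.71 ± 0.572 TPM with guide 1 (log2 fold change 0.02, 95% interval -0.22 to 0.27 with the block). None of 20 ascorbate-dependent dioxygenases was called or had an unadjusted p under 0.05 without the block.

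Of the 3 tested IFITM genes, IFITM1 and IFITM2 fell with the block and IFITM3 was not called. The interferon-induced IFITM genes encode membrane proteins that restrict the entry of viruses. IFITM1 was at 13, 16 and 25.5 TPM in the controls and 9.69, 9.81 and 21.4 TPM with guide 1, lower in each pair of the same number but overlapping between groups (log2 fold change -0.43, adjusted p = 0.0441 with the block). IFITM2 was at 91.2, 87.8 and 127 TPM in the controls and 73.6, 75.2 and 102 TPM with guide 1, with the same overlap at replicate 3 (log2 fold change -0.28, adjusted p = 0.024 with the block). IFITM3 averaged 5.84 ± 2.08 TPM in control libraries and 6.15 ± 1.22 TPM with guide 1 (log2 fold change 0.10, adjusted p = 0.74 with the block). These near-identical genes can share reads, so their separate values are uncertain. Without the block, the fold change of IFITM1 was -0.17 when NTC replicate 3 was left out and -0.78 without guide 1 replicate 3. IFITM2 was at -0.11 and -0.43 in the same fits. IFITM1 and IFITM2 were the 2 called of 14 tested interferon-stimulated genes, beside 0.504% of all tested genes with the block. The median of the 14 was -0.02 and changed sign in 4 of 23 alternatives. BST2 and IFIH1 had log2 fold changes of 0.11 and -0.26 that did not pass.

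TRIM21, a cytosolic antibody receptor and ubiquitin ligase, was at 11.6, 11.9 and 13 TPM in the controls and 8.77, 8.25 and 9.58 TPM with guide 1. All guide 1 libraries were lower (log2 fold change -0.42, SE 0.07, adjusted p = 0.0218 with the block and 0.345 without it). BISPR, a noncoding RNA that neighbours BST2, was at 2.03, 2.18 and 3.22 TPM in the controls and 3.54, 3.64 and 4.97 TPM with guide 1, all above the controls (log2 fold change 0.54, adjusted p = 0.0276 with the block). CCL2, a monocyte-attracting chemokine, was at 7.75, 5.25 and 3.73 TPM in the controls and 5.03, 3.09 and 2.35 TPM with guide 1. Each value was lower than the control of its number while the groups overlapped (log2 fold change -0.55, adjusted p = 0.0256 with the block). The value for CCL2 was -0.32 without NTC replicate 1 and -0.78 without guide 1 replicate 1 in the fits with no block.

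Short-lived mRNAs, which often carry AU-rich elements, had mostly negative fold changes. Of 17 tested immediate early mRNAs, which are induced within minutes of a stimulus, 3 had positive fold changes and the median was -0.17. None was called with or without the block. Without it, 3 had an unadjusted p under 0.05, all lower, beside 2.11% lower of all tested genes. JUNB, a subunit of the transcription factor AP-1, was at 22.2, 23.4 and 26.1 TPM in the controls and 19, 18.2 and 19.7 TPM with guide 1. Its guide 1 libraries all lay below the controls (log2 fold change -0.32, adjusted p = 0.772, and 0.0549 with the block), as they did for 5 of the 17 genes against 4.31% of all genes tested. BTG2, IER5 and JUND had log2 fold changes of -0.26, -0.17 and -0.17, and DUSP5, the most abundant, -0.09. DUSP6, a phosphatase of the kinase ERK outside this list, fell with the block from 17.9, 18.5 and 26.5 TPM to 14, 14.1 and 18.8 TPM, with overlap (log2 fold change -0.40, adjusted p = 0.0211, or -0.22 in the fit with no block that left out NTC replicate 3).

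All 10 tested cytokine and other AU-rich element mRNAs had fold changes below 0, with a median of -0.17. CCL2 alone was called, beside 0.504% of all tested genes with the block. TNF, an inflammatory cytokine whose AU-rich element is a textbook example, was at 17.9, 20.5 and 24.2 TPM in the controls and 15.5, 14.6 and 19.4 TPM with guide 1. The groups overlapped and TNF did not pass (log2 fold change -0.32, adjusted p = 0.96, and 0.0587 with the block). PLAUR, the urokinase receptor and the most abundant of them, and NFKBIA, the inhibitor of NF-kB, had log2 fold changes of -0.19 and -0.15. Of 16 NF-kB subunits and feedback genes 2 had positive fold changes, the median was -0.09, and none was called. Without the block, 2 had an unadjusted p under 0.05, both lower, beside 2.11% lower of all tested genes. RELA, NFKB2 and ICAM1 were at -0.14, -0.15 and -0.15, and NFKB1, the most abundant, was at -0.02. These lists overlap in members, and all their values come from the same 6 libraries.

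**Figure D4:**
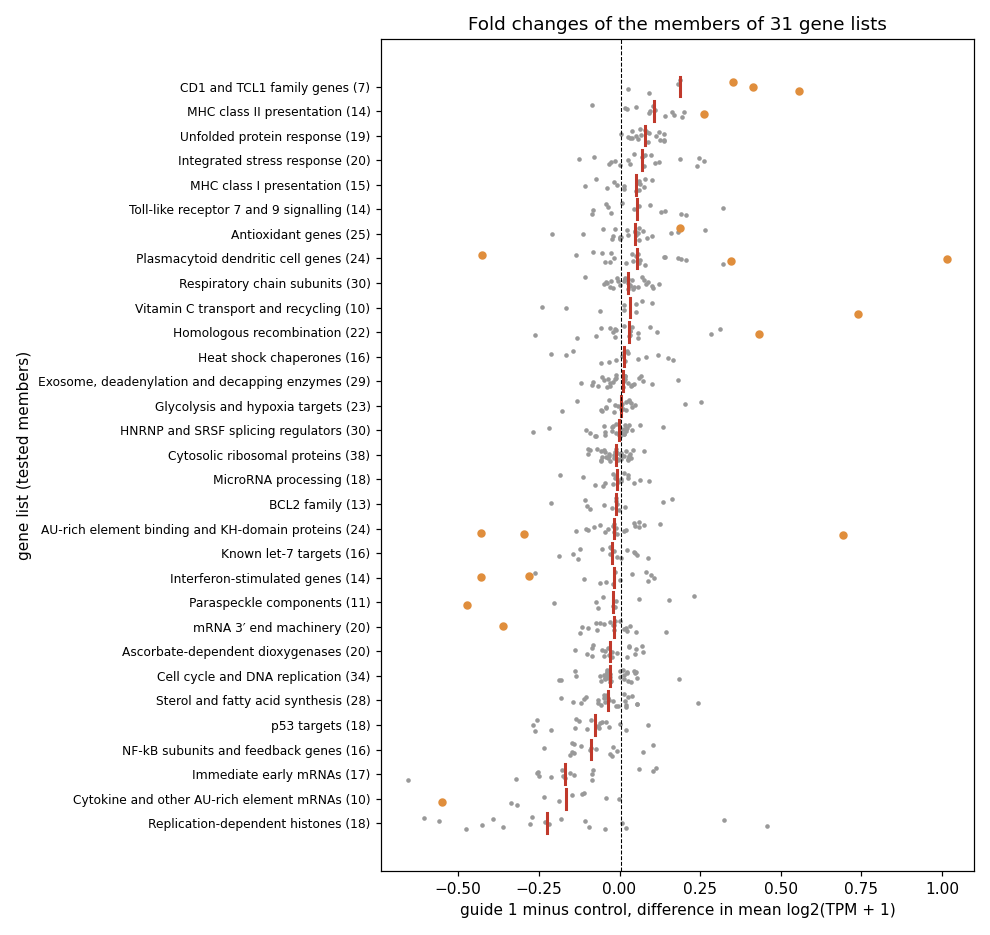
Difference in mean log2(TPM + 1) between guide 1 and control (horizontal axis) for each tested member of 31 gene lists (vertical axis, with the number tested). Orange points were called with the replicate block, red bars are list medians, the dashed line is the median of all tested genes, and KHSRP itself at -2.72 is not drawn. List medians run from -0.22 for replication-dependent histones to 0.19 for CD1 and TCL1 family genes, and the called members lie away from their lists' medians.

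Sites for AU-rich element binding proteins are shown for the called genes ZFP36 and ZFP36L1 and for TNF, because these mRNAs are known to carry them. The motif searched was TATTTAT on the transcript strand of the longest annotated 3′ untranslated region (GENCODE 29, DNA letters), and overlapping matches were counted. In each 30-base window the match is in capitals.
ZFP36, from base 493: aatgggcccttTATTTATgacgactttatt
ZFP36, from base 508: tatgacgacttTATTTATtctaatatgatt
ZFP36, from base 533: tgattttatagTATTTATatatattgggtc
ZFP36L1, from base 2135: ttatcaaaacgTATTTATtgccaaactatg
ZFP36L1, from base 2177: aattttgttcaTATTTATcgggatgacaaa
ZFP36L1, from base 2394: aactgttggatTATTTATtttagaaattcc
TNF, from base 442: ccagctccctcTATTTATgtttgcacttgt
TNF, from base 464: gcacttgtgatTATTTATtatttatttatt
The base number is the position of the match in the 3′ untranslated region, which is 713 bases long in ZFP36, 2828 in ZFP36L1 and 799 in TNF. ZFP36 and ZFP36L1 held 3 matches each and TNF 8, some of which overlap. At least 1 match was found in 21.5%, 53% and 21.7% of genes with regions of like length.

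The motif was found in 3423 of the 9762 tested genes with an annotated region (35.1%). It was found in 4 of 26 genes called higher with the block (15.4%) and 3 of 19 called lower (15.8%), whose regions were shorter than those of all genes, with medians of 520 and 670 bases against 1354. The higher genes with a match were FTH1, MAP1A, SEC11C and PCYOX1L, and the lower ones ZFP36, ZFP36L1 and DLX2. GZMB, FUBP1, SLC23A1, CD1E, TCL1B and CCL2 had none. Immediate early mRNAs held it in 12 of 17 genes (70.6%). Within genes whose region was 500 to 1000 bases long, the median fold change was -0.013 with a match and -0.004 without, and between 1000 and 2000 bases it was 0.005 and -0.002. A match is a run of letters and no proof of a binding site, and its absence from the annotated region says nothing about the factor.

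Replication-dependent histone genes had the lowest list median, -0.22, with 14 of 18 below 0 and none called. Without the block, 5 had an unadjusted p under 0.05, all lower, beside 2.11% lower of all tested genes. H2AFX, the most abundant member of the list, averaged 82.3 ± 3.95 TPM in control libraries and 68.2 ± 5.62 TPM with guide 1. Its log2 fold change was -0.27 (adjusted p = 0.53 without the block, and at lowest 0.0582 over 23 alternative analyses). HIST1H1C, HIST2H2AC and HIST1H2BK had log2 fold changes of -0.48, -0.39 and -0.28. HIST1H2BH, a histone H2B gene outside this list that is named for the size of its fold change, was at 38.2, 30.5 and 29.8 TPM in the controls and 16.4, 20.6 and 22.8 TPM with guide 1. Its guide 1 libraries were all lower, but it did not pass (log2 fold change -0.70, SE 0.16, adjusted p = 0.408, and 0.0549 with the block). Replication-dependent histone mRNAs lack a poly(A) tail, and the sources used here do not say whether the libraries selected polyadenylated RNA. Among 22 homologous recombination genes SWI5 was called, beside 0.504% of all tested genes with the block. SFR1, which encodes the binding partner of SWI5, averaged 5.83 ± 1.18 TPM in control libraries and 7.23 ± 0.33 TPM with guide 1. Its adjusted p was 0.93 without the block, and at lowest 0.213 over 23 alternative analyses. RAD54L averaged 44.6 ± 3.02 and 37 ± 2.61 TPM (log2 fold change -0.26, adjusted p = 0.611 without the block). RAD54L was called in 1 of 23 alternative analyses (adjusted p = 0.0342), but not with the block. DMC1 and the most abundant member RAD51C were not called.

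FKBP11, SEC11C and KDELR3 rose with the block, 3 single genes that were not tested as a group. FKBP11, a prolyl isomerase of the endoplasmic reticulum, was at 52.6, 61.4 and 59.9 TPM in the controls and 69.2, 72.4 and 76.2 TPM with guide 1, without overlap (log2 fold change 0.32, adjusted p = 0.0176). SEC11C, a subunit of signal peptidase, rose by 0.21 on the log2 scale from 361 ± 47.8 to 417 ± 49 TPM (adjusted p = 0.0382). KDELR3, a receptor that returns proteins to the endoplasmic reticulum, rose by 0.44 from 8.47 ± 2.14 to 11.9 ± 3.2 TPM (adjusted p = 0.0411). SEC11C and KDELR3 overlapped between the groups. Without the block and with 1 library left out, their fold changes ranged from 0.10 to 0.31 and from 0.27 to 0.63. All 19 tested genes of the unfolded protein response had fold changes above 0, with a median of 0.08 and a highest value of 0.14, and none was called or had an unadjusted p under 0.05 without the block. HERPUD1, HSP90B1, ERN1, DNAJC3 and the abundant CANX had log2 fold changes of 0.09, 0.14, 0.14, 0.14 and 0.06.

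ATP5G1, COX20, FTH1, SCARA5 and ASS1 also rose with the block, as single genes that were not tested as a group. ATP5G1, subunit c of ATP synthase, was at 466, 462 and 484 TPM in the controls and 555, 596 and 561 TPM with guide 1. All guide 1 libraries were higher (log2 fold change 0.28, SE 0.04, adjusted p = 0.0176). COX20, an assembly factor of cytochrome c oxidase, was at 24.9, 25.2 and 19.2 TPM in the controls and 32.2, 32.8 and 24.4 TPM with guide 1, with overlap at replicate 3 (log2 fold change 0.36, adjusted p = 0.018). None of 30 respiratory chain subunits was called, and their median was 0.03. Without the block, 1 of them had an unadjusted p under 0.05, beside 5.22% of all tested genes. FTH1, the heavy chain of the iron store ferritin, was at 1572, 1480 and 1442 TPM in the controls and 1751, 1749 and 1619 TPM with guide 1, all higher, with a log2 fold change of 0.19 (adjusted p = 0.0289). SCARA5, a ferritin receptor, averaged 1.6 ± 0.343 and 2.79 ± 0.143 TPM (log2 fold change 0.55, adjusted p = 0.0319). FTH1 was the 1 called of 25 antioxidant genes, beside 0.504% of all tested genes with the block. ASS1, which makes argininosuccinate, was at 196, 179 and 300 TPM in the controls and 220, 227 and 348 TPM with guide 1. It was higher in each pair and overlapped between groups (log2 fold change 0.24, adjusted p = 0.0289). Without the block, the fold change of ASS1 was 0.47 when NTC replicate 3 was left out and 0.03 without guide 1 replicate 3, and that of COX20 was 0.23 and 0.49.

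Other protein-coding genes were also called with the block. CFDP1 fell from 134 ± 16.3 to 108 ± 6.99 TPM (log2 fold change -0.31) and the opsin gene OPN3 from 85.2 ± 1.81 to 69.3 ± 2.89 TPM (-0.29), both without overlap. TCTA rose from 13.3 ± 1.87 to 18.7 ± 1.04 TPM (0.47) and TMEM81 from 5.31 ± 0.43 to 7.70 ± 0.256 TPM (0.47), also without overlap. TAF9B, a subunit of the transcription factor TFIID, rose by 0.38, and MAP1A, a microtubule-associated protein, by 0.37. The remaining higher genes were PCYOX1L, ATP6V1E2, HINT2, TMEM14B and MYBPH, and the remaining lower genes were GJB2, RIPOR1, DLX2 and CALHM2.

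Noncoding RNAs and pseudogenes made up the other calls. LOC100507600 was at 24.9, 26.9 and 28.6 TPM in the controls and 35.3, 33.9 and 40.8 TPM with guide 1, all higher (log2 fold change 0.43, SE 0.05, adjusted p = 0.00519). LOC101927045 rose by 0.45, CXCR2P1 by 0.39, and the antisense transcripts PPP3CB-AS1 and TMCC1-AS1 by 0.53 and 0.43. GCSHP3, a pseudogene of the glycine cleavage protein GCSH, fell by 0.49 from 17.8 ± 2.59 to 12.3 ± 1.46 TPM. ARHGAP31-AS1 was at 3.30, 1.61 and 2.91 TPM in the controls and 6.33, 3.83 and 4.25 TPM with guide 1, all higher (log2 fold change 0.69, adjusted p = 0.0283). The use of strand in counting is not given, so reads of an antisense transcript cannot be told from those of its partner, and a pseudogene can take reads of its parent.

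Guide 2 shares the 3 control libraries with guide 1, so its values are given side by side and do not repeat the comparison independently. Guide 2 left KHSRP at 35.3 ± 1.49 TPM. FUBP1 was at 337, 301 and 284 TPM, GZMB at 91.8, 99.7 and 55.1 TPM and SLC23A1 at 2.44, 3.37 and 3.70 TPM with guide 2, within or near the range of the guide 1 libraries. Without the block, the guides differed in log2 fold change by 0.01 for FUBP1 (95% interval -0.14 to 0.15), by -0.04 for GZMB (-0.66 to 0.57) and by 0.00 for SLC23A1 (-0.37 to 0.37). No gene was called for guide 2 minus guide 1 without the block, where 112 genes (1.03%) had an unadjusted p under 0.05, and 1 gene (0.00916%) was called with it.

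**Figure D5:**
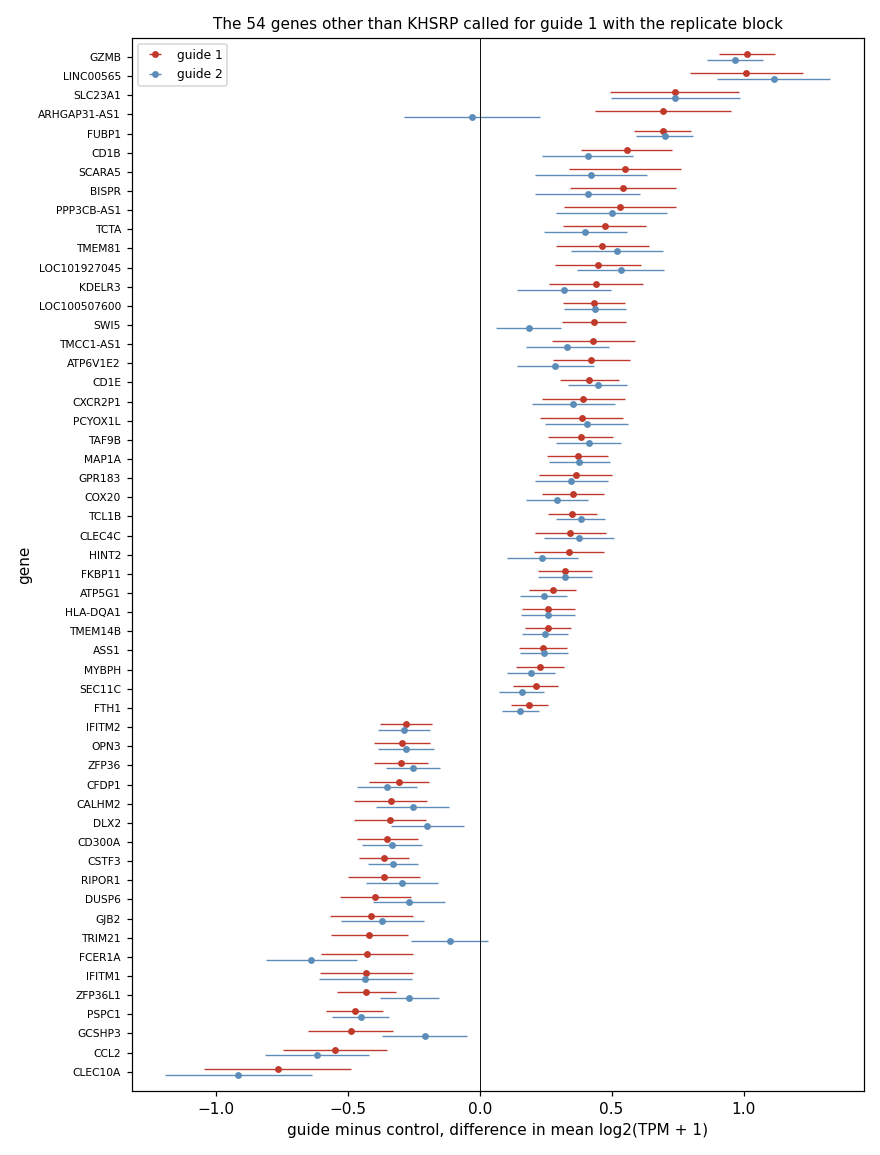
Difference in mean log2(TPM + 1) from control (horizontal axis) for guide 1 (red) and guide 2 (blue), for the 54 genes other than KHSRP that were called for guide 1 with the replicate block. Bars are 95% intervals from that fit, not adjusted for the number of genes, and both guides share the controls. Guide 2 values for ARHGAP31-AS1 (-0.03) and TRIM21 (-0.11) have intervals that include 0.

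Some genes called for guide 1 had smaller values with guide 2. SWI5 was at 25.9, 26.3 and 24.1 TPM with guide 2, a log2 fold change of 0.19 against 0.43 with guide 1. Those guide 2 libraries lay above the controls and below guide 1. The difference was -0.25 (95% interval -0.37 to -0.13 and adjusted p = 0.92, both with the block). TRIM21 was at 11.6, 10.1 and 11.8 TPM with guide 2, and the difference was 0.30 (0.16 to 0.45 and adjusted p = 0.807, both with the block). ARHGAP31-AS1 was at 2.99, 1.49 and 3.14 TPM with guide 2, near its controls. The difference was -0.73 (-0.98 to -0.47 and adjusted p = 0.168, both with the block). ZFP36L1 was at -0.27 with guide 2 and -0.43 with guide 1. The difference was 0.16 (0.05 to 0.28 and adjusted p = 0.986, both with the block). GCSHP3 was at -0.21 and -0.49, a difference of 0.28 (0.12 to 0.44 and adjusted p = 0.986, both with the block). FCER1A instead fell more with guide 2, by 0.64 against 0.43. Its difference was -0.21 (-0.38 to -0.04 and adjusted p = 0.986, both with the block). The intervals are not adjusted for the number of genes. None of these differences passed the test over all genes.

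The genes with the smallest p for the difference between the guides included ENO1-AS1, LOC105370333 and RNVU1-11. ENO1-AS1 was at 1.57, 1.60 and 1.94 TPM in the controls, 2.07, 2.55 and 2.77 TPM with guide 1 and 6.68, 4.00 and 6.03 TPM with guide 2, so that it was highest with guide 2 in every replicate (difference 0.90, adjusted p = 0.156 with the block). RNVU1-11, a variant U1 small nuclear RNA, was at 2.33, 2.24 and 2.23 TPM with guide 1 and listed at 0 in the guide 2 libraries, and control replicate 3 was also listed at 0. LOC105370333 averaged 10.2 ± 0.199 TPM (SD, n = 3) with guide 1 and 7.55 ± 0.543 TPM with guide 2, and was not called.

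Among the 7 genes with a log2 fold change of at least 1 in size (0.0641% of those tested), 4 were not called, and all 4 were listed at 0 in at least 1 control library. They were chosen after their values were seen. HIGD1C was listed at 0 in control replicate 1 and in all guide 1 libraries and at 14.3 TPM in the other 2 controls. LOC105376271 was at 62 TPM in control replicate 1 and at 65.3 and 34.6 TPM in guide 1 replicates 2 and 3, and was listed at 0 in the others. LOC101928402 was at 0, 7.10 and 4.86 TPM in the controls and 5.19, 6.23 and 9.94 TPM with guide 1, with overlap. HIST1H4F was at 0, 0.537 and 1.31 TPM in the controls and 3.56, 1.71 and 2.80 TPM with guide 1, all higher.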

How the data were processed

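RNA sequencing values of 9 CAL-1 libraries were used. The values are TPM by gene symbol, as the authors deposited them in a single table, and each library sums to 1000000. Per the submitters' processing notes the build was hg38, and the sources used here do not give the aligner's version, the counter, the annotation or whether strand was used. Depth is unknown and no count test was run. Groups and replicate numbers came from the sample titles, and no libraries held identical values.

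The 10913 genes that averaged 1 TPM or more over control and guide 1 libraries were transformed to log2(TPM + 1), so the pseudocount was 1, and fitted in limma 3.58.1 (R 4.3.3). The fit held all 3 groups, which share an estimate of the spread, and used eBayes with an intensity trend and two-sided tests. Benjamini-Hochberg adjustment covered every tested gene. Replicate numbers were taken to pair the libraries. Deviations from the group means correlated at 0.16, 0.23 and 0.63 between control and guide 1 libraries of the same number. Between replicates 1 and 2 of different number the correlations were 0.34 and 0.29, and control and guide 2 replicate 1 gave 0.04. A pairing of control and guide 1 libraries therefore shows for replicate 3 alone.

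Named genes were 6 of interest (KHSRP, FUBP1, FUBP3, SLC23A1, SLC23A2 and TET2), every called gene without the block, and up to 12 per direction called with it and not overlapping the controls. Further named genes were up to 4 members with the smallest p and the most abundant member of each described list, up to 3 per direction differing between guides, called neighbours of KHSRP, and up to 6 per direction with the largest changes at a mean TPM of at least 10. All other genes called with the block are named as well, chosen after their values were seen. The members and the 37 gene lists were chosen with earlier results of these data known. Of 701 listed symbols 697 matched directly and 1 through a synonym. Alternatives were pseudocounts of 0.1 and 5, other filters and scalings, a replicate block, a term for replicate 3, array weights, robust eBayes, fitting only the libraries compared, and leaving out each library. The method was tested on simulated data. Positions and 3′ untranslated regions are from GENCODE 29. Lists, sequences and figures were made in Python 3.11.15 (matplotlib 3.10.9, numpy 2.4.6, pandas 2.3.3).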

Additional observations from a re-analysis of the deposited data

Results flagged for a closer look

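GBAT2, a noncoding RNA, was the 1 gene for which the guides differed by a test of the difference itself. It was at 10.3, 10 and 9.28 TPM in the controls, 13.3, 10.1 and 11 TPM with guide 1 and 7.53, 6.70 and 5.94 TPM with guide 2. Every guide 2 library was below every control and every guide 1 library, while guide 1 overlapped the controls. The difference of guide 2 minus guide 1 was -0.69 on the log2(TPM + 1) scale (limma adjusted p = 0.0257 with the replicate block and 0.806 without it).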

How the results depend on the processing

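KHSRP and FUBP1 were called for guide 1 under all 23 alternatives, and GZMB under 4. The count of 6 genes called for guide 1 became 55 with the replicate block, 79 with a term for the replicate 3 libraries, 2 in a fit of only the libraries compared and 46 in that fit with the replicate block, and ranged from 2 to 4 when 1 library was left out. The smaller fits have fewer samples. Of the 55 genes, 51 were also called with the replicate 3 term and 39 with the block in 6 libraries. The 55 genes became 6 with no filter, where 16073 genes were tested, 105 at a mean TPM of at least 5, 92 with median-ratio rescaling and 98 with quantile normalization. That count ranged from 5 to 127 when 1 library was left out of the fit with the block, the highest value being without guide 2 replicate 1. For these moves the cause was not tested, apart from the changed numbers of genes or samples. The 0 genes that differed between guides became 1 with the replicate block, 1 in a fit of only the libraries compared, 3 in that fit with the block and 1 in replicates 1 and 2 alone, and ranged from 0 to 1 when 1 library was left out (1 without NTC replicate 3). Genes near a fold change of 0 changed sign and were not called under any alternative. With array weights FUBP3 was at 0.0057 and NUDT21 at -0.0174, and with quantile normalization CD74 was at -0.0347. With 1 library left out, FUBP3 ranged from -0.0381 to 0.0134, TET2 from -0.0429 to 0.1216, DUSP5 from -0.2036 to 0.032, PDIA3 from -0.0049 to 0.1361, CD74 from -0.0306 to 0.0732, NFKB1 from -0.0645 to 0.0104, NUDT21 from -0.05 to 0.0699 and HNRNPK from -0.0295 to 0.0122. Median fold changes of the CD1 and TCL1, MHC class II, immediate early, cytokine, NF-kB, histone and unfolded protein response lists kept their sign in all 23 alternatives. The median of all genes moved from 0.005 to 0.001 and 0 under the 2 rescalings.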

Other observations

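Lists not described above held no gene called with the replicate block, beside 0.504% of all tested genes. Of 18 targets of p53, 3 had positive fold changes and the median was -0.08. FAS, a death receptor on that list, was at 4.63, 5.32 and 4.91 TPM in the controls and 4.18, 3.97 and 3.68 TPM with guide 1, all below the controls. It did not pass (log2 fold change -0.27, adjusted p = 0.863 without the block, and at lowest 0.178 over 22 alternatives). The 34 cell cycle and DNA replication genes had a median of -0.03. CCND1, which encodes cyclin D1, averaged 35.4 ± 0.682 TPM in control libraries and 31 ± 0.676 TPM with guide 1 without overlap. Its log2 fold change was -0.19 (adjusted p = 0.667 without the block, and at lowest 0.103 over 23 alternatives). Among 20 integrated stress response genes the median was 0.07, and 15 were above 0. NQO1, an antioxidant quinone reductase, was at 17.4, 17.9 and 15.7 TPM in the controls and 21.1, 21.1 and 19.5 TPM with guide 1, all higher. It did not pass (log2 fold change 0.26, adjusted p = 0.804 without the block, and at lowest 0.0623 over 23 alternatives). In all, 11 of 31 lists held a gene called with the block and 4 held one called without it. List medians ran from -0.22 to 0.19, and 5 were beyond 0.1 in size.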
